A study of Mus musculus with 8 samples.

Results

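The SR protein genes and the genes of the heterogeneous nuclear ribonucleoproteins (hnRNPs) were examined in RNA that the labels give as that of cardiac extracellular vesicles (EVs). Members were the genes of the mRNA table whose symbol was Srsf followed by a number, or began with Hnrnp. There were 31 of 22481 genes, 11 named Srsf and 20 named Hnrnp. The rule used names and no measured value. A filter on low values, a mean of at least 0.5 FPKM (fragments scaled to transcript length and library size) over the 8 libraries, was passed by 30 members, and Srsf12 did not pass it.

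By the labels and methods, EVs were prepared from the hearts of C57BL/6J mice aged 10 weeks. Ribosomal RNA was depleted and each mouse gave 1 library. The IR group (4 mice) had 45 min of ischemia, by ligation of the left anterior descending coronary artery, and 24 h of reperfusion. The sham group (4 mice) was sham operated. The vesicles were collected by centrifugation of collagenase-digested left ventricle, a procedure that does not separate vesicles by their cell of origin.

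The labelled source was checked with marker genes. Of 15 cardiomyocyte markers 3 reached a mean of 0.5 FPKM, and Myl2, Nppa, Mb and Csrp3 were at 0 in all 8 libraries. The cardiomyocyte markers summed to 63.9 to 69.3 FPKM in IR libraries and 56.5 to 85.3 FPKM in sham libraries, most of it Atp2a2, a calcium pump of muscle that many other tissues share. Of 15 markers of enterocytes, the absorptive cells of the intestine, 15 were measured, with sums of 24860 to 36330 FPKM in IR libraries and 21790 to 26860 FPKM in sham libraries. Of these, 7 were higher and 1 was lower in IR at an unadjusted edgeR p under 0.05 (4 and 1 without sham 1), where 4.87% of all tested mRNAs were higher and 4.86% lower. Of 12 T and NK lymphocyte markers 9 were higher at that level (7 without sham 1), and DESeq2 called 4, against 0.315% of all tested mRNAs, with sums of 196 to 471 FPKM in IR libraries and 90.04 to 297 FPKM in sham libraries. The 10 endothelial and fibroblast markers were measured and 0 passed that level. Apart from Atp2a2, the cardiomyocyte markers were thus absent or low while those of enterocytes were high, and the label and these markers disagree. The part of this composition in the values below was not tested. In such bulk RNA, fewer cells or vesicles of a type and less RNA in each cannot be told apart. The mRNA table held 13824442 to 18501768 fragments in IR libraries and 15908984 to 22497260 in sham libraries, and edgeR's biological coefficient of variation was 22.0%.

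SR proteins bind exons through RNA recognition motifs and, through domains rich in arginine and serine, recruit the spliceosome to nearby splice sites. hnRNPs coat the nascent transcript, often oppose the use of a splice site, and also act in mRNA export, stability and translation. Most SR genes control their own level by including a "poison" exon, whose early stop codon sends the transcript to nonsense-mediated decay, and several hnRNP genes do the same. In the mouse heart Srsf1 is known for the splicing of the calcium kinase gene Camk2d, and Hnrnpa2b1 is known in human T cells as a binder of microRNA motifs that are sorted into exosomes.

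Transcripts of 3 SR genes that carry such an exon were themselves listed in the lncRNA table, under the RefSeq names NR_036615 (Srsf7), NR_036613 (Srsf3) and NR_036616 (Srsf9). Their stop-bearing exons are shown because the Srsf7 transcript turned out to be among the best measured non-coding transcripts of the family. The sequences are RefSeq's, read from GRCm38.p6 (the build also called mm10), 5′ to 3′ on the gene's strand, with the first stop codon in the reading frame of the protein in capitals. The first 120 bases of the exon are given for Srsf7 and Srsf3, and the whole exon for Srsf9.
Srsf7 exon 4 of NR_036615: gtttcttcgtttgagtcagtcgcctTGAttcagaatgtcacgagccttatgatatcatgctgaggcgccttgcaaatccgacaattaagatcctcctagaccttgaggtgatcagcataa
Srsf3 exon 4 of NR_036613: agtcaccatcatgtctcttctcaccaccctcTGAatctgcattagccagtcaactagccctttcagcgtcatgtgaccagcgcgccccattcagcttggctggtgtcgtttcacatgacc
Srsf9 exon 3 of NR_036616: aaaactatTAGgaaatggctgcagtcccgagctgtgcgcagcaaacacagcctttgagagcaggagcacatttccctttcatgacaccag

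The Srsf7 exon lies at chr17:80204622-80205081 on the minus strand, is 460 nt long and is in 0 of the 5 coding RefSeq transcripts. Its TGA ends the reading frame after 137 codons, where the coding transcripts have 223 to 238. The Srsf3 exon lies at chr17:29039454-29039909 on the plus strand, is 456 nt long, and its TGA ends the frame after 124 codons in place of 164. The Srsf9 exon lies at chr5:115331450-115331539 on the plus strand, is 90 nt long, and its TAG ends the frame after 120 codons in place of 222. In GENCODE M21 a transcript with the same splice junctions as NR_036615, and another with those of NR_036613, is classed as a nonsense-mediated decay transcript. GENCODE M21 lists a transcript of that class for 9 of the 11 SR genes, the exceptions being Srsf10 and Srsf12, and for 10 of the 20 hnRNP genes. Among the tested mRNAs that GENCODE M21 holds as protein-coding genes (12498), 28.4% have one.

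The SR and hnRNP mRNAs were abundant in the RNA of these libraries. The median level was 42.1 FPKM for the 11 SR genes and 43.8 FPKM for the 20 hnRNP genes, against 8.65 FPKM for the 12716 tested mRNAs. Among the tested members, 12 were in the top 10% of tested mRNAs and 29 were above their median. The exception was Srsf7, at percentile 47.1. Each tested member had between 139 and 9879 fragments in every library.

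**Figure D1:**
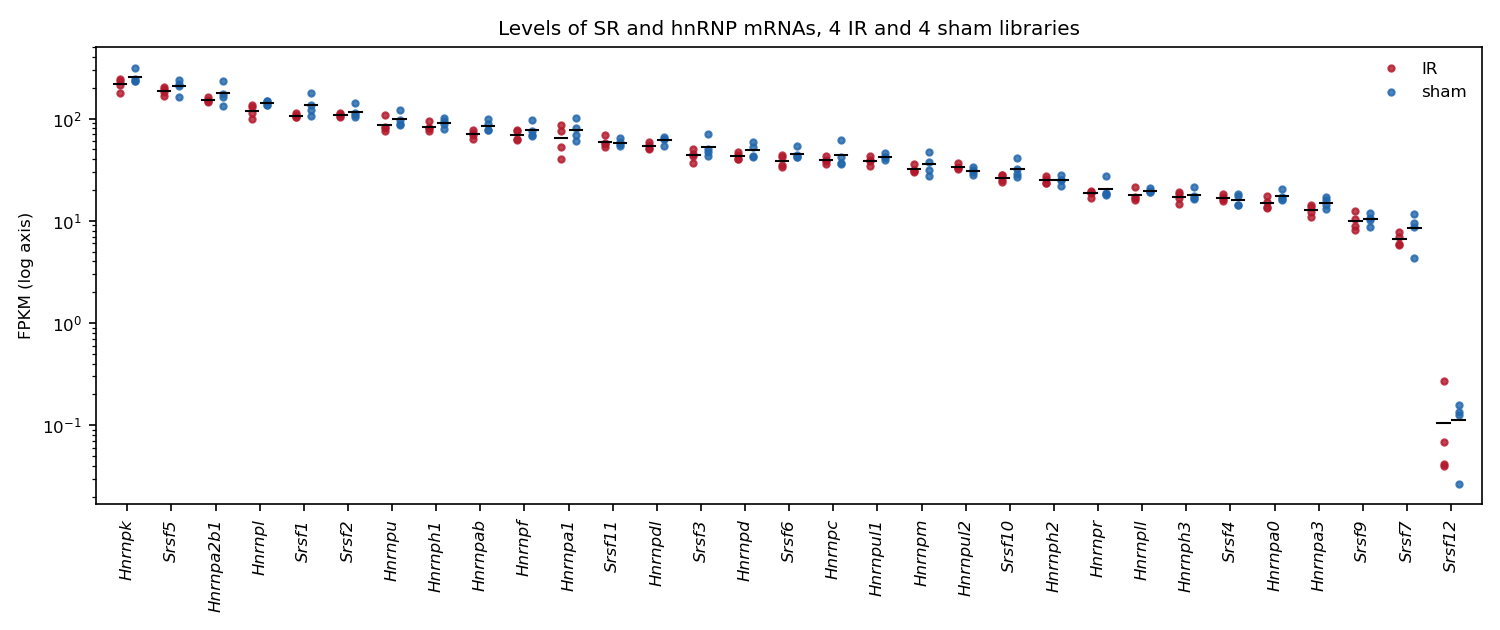
FPKM (log axis) of the 31 members in each library, IR points left of sham points, with a black line at each group's mean, ordered by the mean over all libraries. Tested members run from Hnrnpk at 237 FPKM to Srsf7 at 7.62 FPKM, and Srsf12 lies apart at 0.108 FPKM.

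Among SR genes the highest levels belonged to Srsf5, Srsf1 and Srsf2. Srsf5 (SRp40), known from splicing that responds to insulin, had 165, 193, 183 and 202 FPKM in IR libraries, against 216, 164, 240 and 210 FPKM in sham libraries. Srsf1, the founding SR protein, had 105, 103, 113 and 108 FPKM in IR libraries, against 177, 134, 105 and 122 FPKM in sham libraries. The IR values of Srsf1 lay within 10 FPKM of each other while the sham values spread widely, with sham 1 the highest, and the groups overlapped. Srsf2 (SC35), a component of nuclear speckles, had 114, 106, 104 and 110 FPKM in IR libraries, against 113, 109, 103 and 143 FPKM in sham libraries. Here sham 4 alone stood above the other libraries.

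Srsf11, Srsf3, Srsf6 and Srsf10 had means over all libraries between 58.6 and 29.2 FPKM, and Srsf4, Srsf9 and Srsf7 between 16.5 and 7.62 FPKM. Srsf12, described in human cells as a splicing antagonist, had 0.268, 0.0687, 0.0398 and 0.0414 FPKM in IR libraries, against 0.136, 0.159, 0.0269 and 0.125 FPKM in sham libraries. Its level was too low for a test, and the groups overlapped. In this order the values of Srsf1 and Srsf2 overlapped over the libraries, while all values of Srsf2 lay above those of Srsf11, all of Srsf10 above those of Srsf4, all of Srsf4 above those of Srsf9, and all of Srsf7 above those of Srsf12.

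Among hnRNP genes the highest was Hnrnpk, which binds stretches of cytosines. It had 215, 177, 231 and 245 FPKM in IR libraries, against 314, 246, 231 and 234 FPKM in sham libraries. Hnrnpa2b1 had 163, 151, 148 and 146 FPKM in IR libraries, against 236, 175, 132 and 162 FPKM in sham libraries. For both genes sham 1 was the highest library and the groups overlapped. Hnrnpl, which binds CA-rich sequences, had 114, 98.8, 131 and 135 FPKM in IR libraries, against 148, 149, 136 and 136 FPKM in sham libraries, without overlap.

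The other hnRNP means over all libraries ran from 92.7 FPKM for Hnrnpu, a large nuclear scaffold protein, to 13.9 FPKM for Hnrnpa3. Between them were the G-tract binders Hnrnph1 (87.0 FPKM), Hnrnpf (73.5 FPKM), Hnrnph2 (25.1 FPKM) and Hnrnph3 (17.6 FPKM). The AU-rich element binders Hnrnpd and Hnrnpa0 had 46.0 and 16.3 FPKM, and the uridine-tract binder Hnrnpc had 41.7 FPKM. Hnrnpll, known for the exclusion of Ptprc exons in lymphocytes, had 18.8 FPKM. The values of Hnrnpa1 and Hnrnpa3, which have many processed pseudogenes, and of the close paralogues Hnrnph1 and Hnrnph2 are uncertain as far as shared reads could be split between copies. The files' gene annotation placed 10 of the 31 members, 3 SR and 7 hnRNP, under the term extracellular exosome, against 16.9% of the 12091 tested mRNAs with such annotation. The 31 include Srsf12, which was not tested, and the share among mRNAs of like level was not computed. That term is given to gene products and does not show that the mRNAs were in vesicles.

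The comparison of IR with sham asked whether the levels of these mRNAs differed between the groups as labelled. A gene was called changed if its Benjamini-Hochberg adjusted edgeR p, over all tested mRNAs, was under 0.05 and its fold change was over 2. By that rule edgeR called 0 of the 30 tested members and 0% of the 12716 tested mRNAs. At an unadjusted p under 0.05 edgeR found 0 of the 30 members, where 9.73% of all tested mRNAs reached that level. DESeq2 called 0 members, against 0.315% of all mRNAs, and had 1 at the unadjusted level (Hnrnpul2, higher), against 10.8% of all mRNAs, 5.77% higher and 5.01% lower. limma on log2(FPKM + 0.1) called 0 members and 0% of all mRNAs, and had 1 at the unadjusted level (Hnrnpab, lower), against 10.3% of all mRNAs, 2.6% higher and 7.73% lower. The adjusted edgeR p of the members ran from 0.517 to 0.968.

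The fold changes were small and their intervals narrow. The log2 fold changes of IR over sham ran from -0.25 for Srsf7 to 0.24 for Hnrnpul2, with 24 members below 0 and 6 above. Of all tested mRNAs 50.1% were below 0. The median was -0.14 for the 10 tested SR genes and -0.086 for the 20 hnRNP genes, against -0.0007 for all tested mRNAs. Without library sham 1 the same medians were -0.070 and -0.033, with 19 of 30 members below 0 and 47.9% of all mRNAs. On FPKM, which carries no TMM scaling, limma gave medians of -0.19 and -0.17 with 27 of 30 members below 0. The median of all mRNAs was then -0.10 and 68.5% of them were below 0. That fit differs from edgeR in test, measure and scaling at once.

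The 95% interval of every tested member lay within a 2-fold change in either direction, as it did for 82.7% of all tested mRNAs, and 27 of 30 lay within 1.5-fold, against 54.6%. By level the tested members lay at a median percentile of 86.6, and the shares among mRNAs of like level were not computed. The lowest bound was -0.78 on the log2 scale (Srsf7) and the highest was 0.49 (Hnrnpul2). A 2-fold difference of a tested member thus lay outside its interval in these libraries, while values inside the interval could not be told apart with 4 mice a group.

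**Figure D2:**
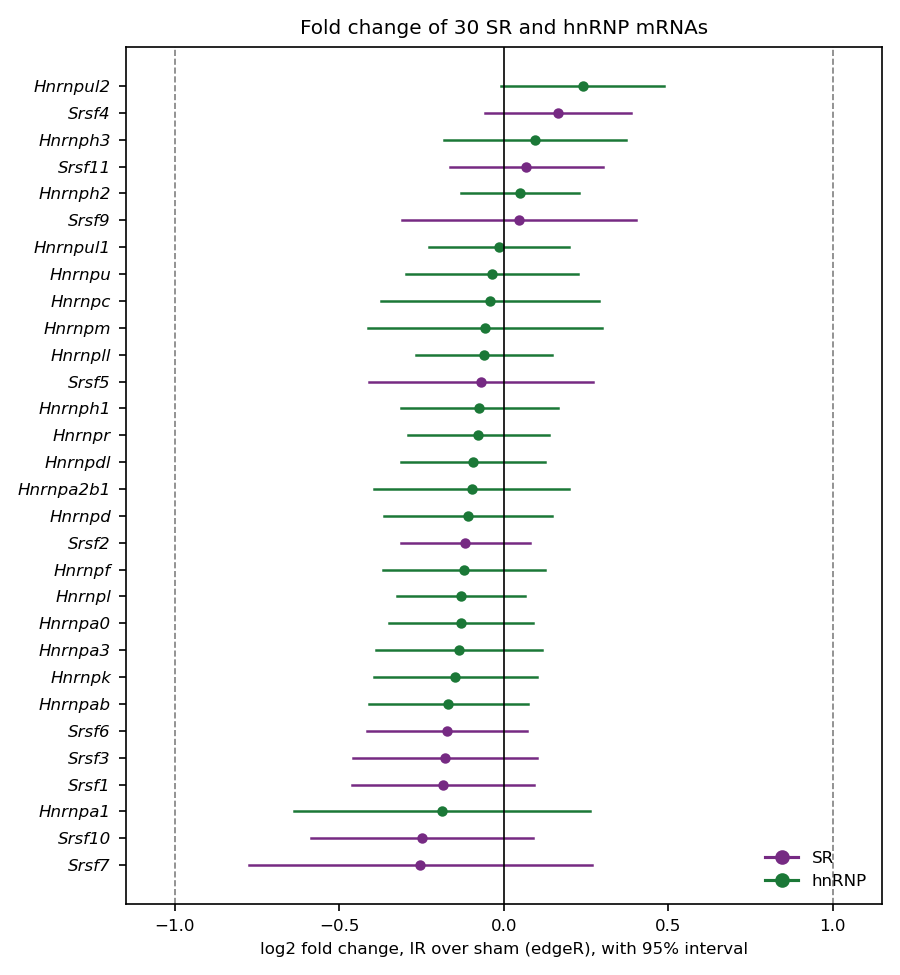
Log2 fold change of IR over sham (edgeR) with its 95% interval for the 30 tested members, SR genes purple and hnRNP genes green, dashed lines at a 2-fold change. All intervals include 0 and lie between -0.78 and 0.49.

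Among SR genes the smallest p-values belonged to Srsf4, Srsf10, Srsf6, Srsf1 and Srsf3. Srsf4 (SRp75) had 18.2, 16.3, 15.6 and 17.3 FPKM in IR libraries, against 17.6, 18.2, 14.4 and 14.4 FPKM in sham libraries (log2 fold change 0.17, SE 0.10, edgeR adjusted p = 0.592). Srsf10, which represses splicing when it loses its phosphates and in the mouse heart acts on the triadin gene, had 24.1, 25.3, 27.9 and 28.0 FPKM in IR libraries, against 41.1, 31.9, 27.0 and 28.5 FPKM in sham libraries (-0.25, SE 0.15, edgeR adjusted p = 0.592). The difference of Srsf10 came mostly with sham 1, and sham 3 lay within the IR range. Srsf6 (SRp55) had 34.9, 33.9, 41.8 and 44.0 FPKM in IR libraries, against 53.5, 41.7, 44.5 and 42.2 FPKM in sham libraries (-0.17, SE 0.11, edgeR adjusted p = 0.609). Srsf3, the smallest SR protein, had 43.0, 36.7, 45.2 and 50.04 FPKM in IR libraries, against 69.98, 50.8, 42.7 and 47.6 FPKM in sham libraries (-0.18, SE 0.13, edgeR adjusted p = 0.643). In both genes sham 1 was again the highest library and the other sham values lay among or near the IR values. For Srsf1 the log2 fold change was -0.18 (SE 0.12, edgeR adjusted p = 0.630).

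Of the hnRNP genes, Hnrnpul2, Hnrnpab and Hnrnpl had the smallest p-values. Hnrnpul2, a relative of Hnrnpu with a role in the response to DNA breaks, had 33.3, 36.7, 31.8 and 32.6 FPKM in IR libraries, against 31.4, 33.6, 28.3 and 29.8 FPKM in sham libraries (log2 fold change 0.24, SE 0.11, edgeR adjusted p = 0.517). All 4 IR values lay above sham 1, sham 3 and sham 4, and IR 2 alone lay above sham 2. Without IR 4 its unadjusted edgeR p was 0.0267, with a log2 fold change of 0.30, and its adjusted p was 0.375. Without IR 2 the log2 fold change was 0.15, with an unadjusted edgeR p of 0.149. Hnrnpab had 72.7, 69.2, 76.7 and 62.7 FPKM in IR libraries, against 98.5, 88.0, 77.1 and 77.7 FPKM in sham libraries (-0.17, SE 0.11, edgeR adjusted p = 0.613). Hnrnpl had a log2 fold change of -0.13 (SE 0.087, edgeR adjusted p = 0.627).

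Hnrnpab and Hnrnpl were the 2 members whose IR FPKM values all lay below all sham values, and 0 lay above. For each a two-sided exact permutation test on the means gave p = 0.0286, the smallest value that 70 assignments of 4 against 4 allow. Groups without overlap always give this value, so it adds nothing to the absence of overlap by which these genes were picked. Of all tested mRNAs 5.25% had groups that did not overlap, 4.37% with IR below and 0.873% with IR above. The nearest IR and sham values of Hnrnpab were 76.7 FPKM (IR 3) and 77.1 FPKM (sham 3). On TMM-scaled levels, an analysis added after the data were seen, 1 member was below without overlap, Hnrnpab, 0 were above, and the values of Hnrnpl overlapped. Of all tested mRNAs 5.05% then had groups without overlap, 2.7% below and 2.35% above. The counts of members were thus near the background.

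Hnrnpk had a log2 fold change of -0.15 (SE 0.11), Srsf5 of -0.068 (SE 0.15), Hnrnpa2b1 of -0.098 (SE 0.13) and Srsf2 of -0.12 (SE 0.088), with edgeR adjusted p of 0.669, 0.903, 0.830 and 0.668. The widest intervals belonged to Srsf7 and Hnrnpa1. Hnrnpa1, a widely acting repressor of splicing, had 75.6, 40.5, 52.7 and 87.5 FPKM in IR libraries, against 101, 81.3, 60.9 and 69.2 FPKM in sham libraries, with a coefficient of variation of 33.3% among IR mice and 22.2% among sham mice.

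The median coefficient of variation of the 30 tested members was 9.93% in IR and 13.9% in sham, against 13.01% and 13.2% for the 5892 mRNAs of at least 10 FPKM. It was larger in sham for 20 of the 30, and for 50.9% of all tested mRNAs. The sum over all members was 1779, 1673, 1821 and 1978 FPKM in IR libraries, against 2418, 1991, 1882 and 1981 FPKM in sham libraries. These sums were 0.441%, 0.413%, 0.445% and 0.468% of all mRNA FPKM in IR, against 0.553%, 0.466%, 0.441% and 0.469% in sham. Sham 1 had the highest sum and share and IR 2 the lowest.

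Sham 1 was the highest of the 8 libraries for 19 of 31 members in FPKM, where it was for 32.9% of all tested mRNAs, and for 17 of 30 after TMM scaling, against 23.9%. IR 2 was the lowest for 12 members in FPKM and for 5 after TMM scaling. In sham 1 the median deviation from each gene's mean was 0.19 for SR genes and 0.21 for hnRNP genes on the log2 scale. In the other libraries these medians lay between -0.17 and 0.018. After TMM scaling the level in sham 1 lay below the gene's own mean for 6 members, Hnrnpl, Hnrnpd, Hnrnpul1, Hnrnpul2, Srsf4 and Hnrnpa0. Sham 1 was also the highest library for 12 of 12 markers of dividing cells, whose sums were 124 to 230 FPKM in IR libraries and 144 to 364 FPKM in sham libraries. All 12 had log2 fold changes below 0, with a median of -0.28, and without sham 1 the count was 6 and the median -0.001. Their part in the deviation of sham 1 was not tested.

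**Figure D3:**
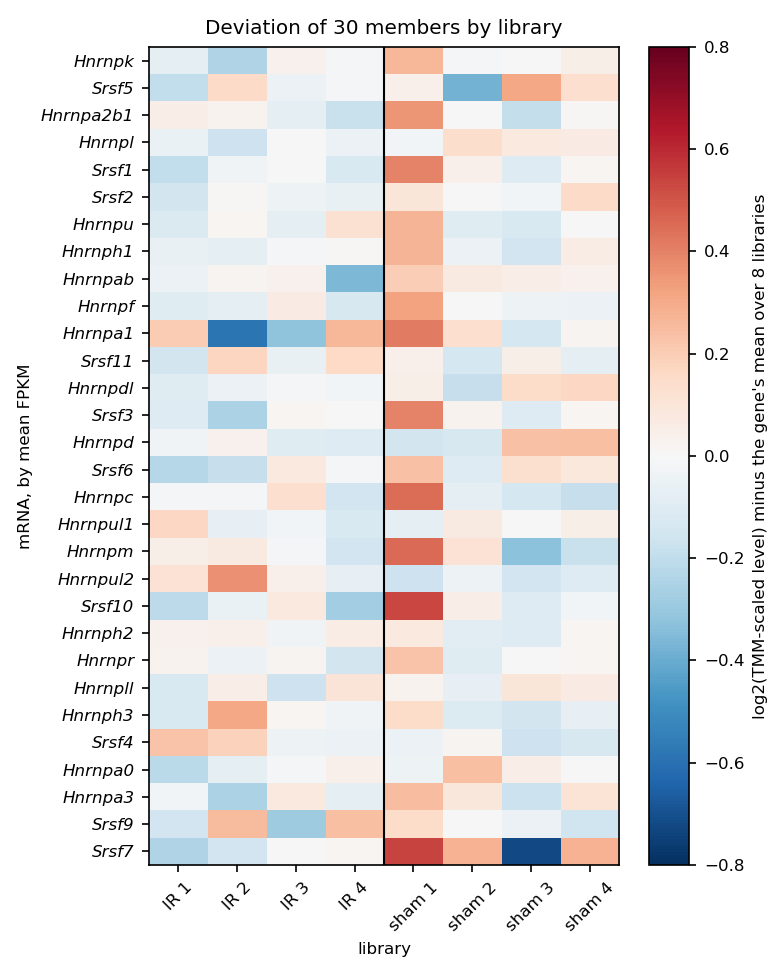
Deviation of each tested member from its own mean in each library (log2 of the TMM-scaled level, IR libraries left of the line and sham libraries right of it), red above and blue below the mean. The column of sham 1 is red for most members, and Srsf7 in sham 3 is the deepest blue.

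Srsf7, which shares its RNA-binding domain with a zinc knuckle, had 5.89, 5.82, 7.02 and 7.81 FPKM in IR libraries, against 11.7, 9.58, 4.32 and 8.78 FPKM in sham libraries. Sham 3 was the lowest and sham 1 the highest of the 8 (log2 fold change -0.25, SE 0.23, edgeR adjusted p = 0.729). The value turned on both of these libraries. Without sham 1 the log2 fold change was -0.10 with an unadjusted edgeR p of 0.676, and without sham 3 it was -0.46 with an unadjusted edgeR p of 0.006 and an adjusted p of 0.572.

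The non-coding Srsf7 transcript NR_036615, with the exon printed above, had 10.3, 6.74, 8.02 and 8.58 FPKM in IR libraries, against 12.3, 10.5, 8.81 and 8.86 FPKM in sham libraries. Its FPKM exceeded that of the Srsf7 mRNA entry in 8 of 8 libraries, and it rested on 374 to 459 fragments in IR libraries and 513 to 609 in sham libraries. Sham 3, the lowest of the 8 libraries for the mRNA entry, was not the lowest of the 8 for NR_036615. Its 8.81 FPKM there was still the lowest sham value, next to 8.86 FPKM in sham 4. Between the groups its log2 fold change was -0.17 (SE 0.17, edgeR adjusted p = 0.868, over 3088 tested lncRNAs), and the groups overlapped.

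The transcript's part of the locus, its FPKM divided by the sum of its FPKM and that of the mRNA entry, was 63.6%, 53.7%, 53.3% and 52.3% in IR libraries, against 51.3%, 52.3%, 67.1% and 50.2% in sham libraries. The means were 55.7% ± 5.29 in IR and 55.2% ± 7.97 in sham (SD, n = 4 each, exact permutation p = 0.857, two-sided). The 2 forms share most exons, so that this division is Cuffdiff's estimate. The transcripts NR_036613 of Srsf3 and NR_036616 of Srsf9 were under 0.001 FPKM, with 0 fragments in each library. Whether fragments of their stop-bearing exons were given to other transcripts of those genes was not tested.

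**Figure D4:**
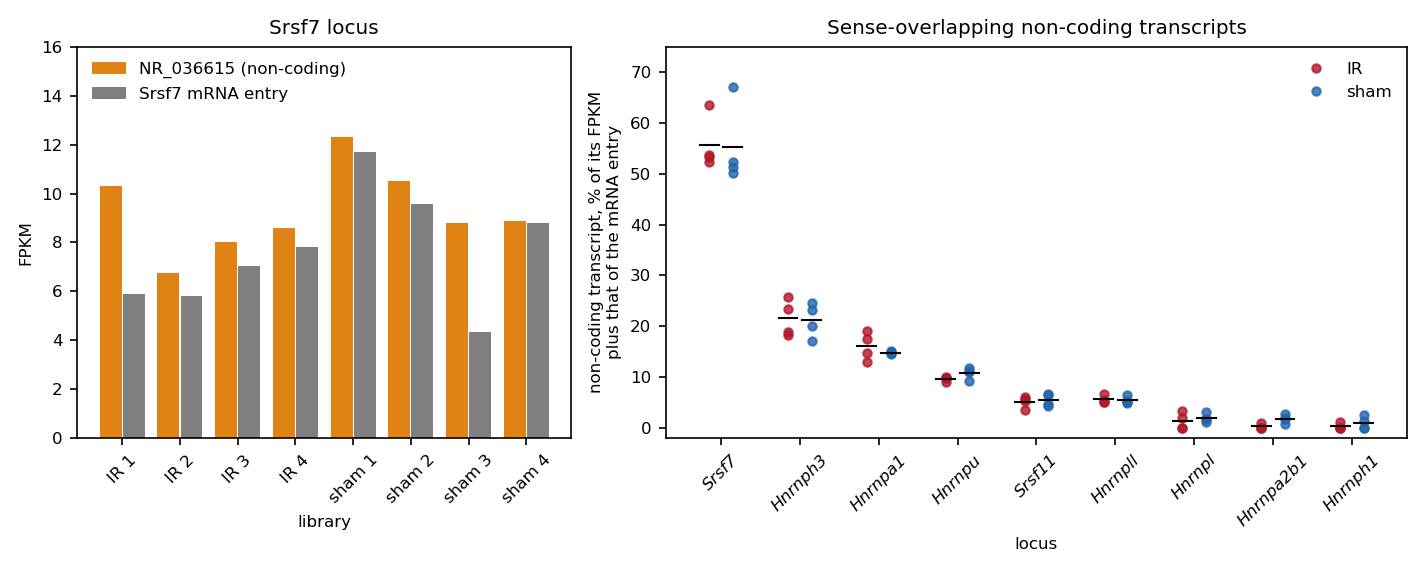
Left, FPKM of NR_036615 (orange) and of the Srsf7 mRNA entry (grey) in each library. Right, percent of the locus FPKM held by the sense-overlapping non-coding transcript at 9 loci, IR points left of sham points, black lines at the means: Srsf7 at 55.7% in IR and 55.2% in sham lies above all other loci.

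The lncRNA table tied 32 transcripts to 22 of the members, 17 overlapping exons in sense, 9 natural antisense and 5 bidirectional, and 1 intronic antisense that lay on another chromosome than its member. Of these, 14 reached 0.5 FPKM and were tested, 11 had between 0.001 and 0.5 FPKM, and 7 were under 0.001 FPKM. edgeR called 0 of the 14 and 0% of the 3088 tested lncRNAs. At an unadjusted p under 0.05 edgeR had 2, against 7.06% of all tested lncRNAs, and DESeq2 called 0, against 0.486%, with 2 at the unadjusted level, against 6.35%.

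The 2 were uc009bxq.1 at Hnrnpa2b1 and uc007dvc.2 at Hnrnpu, both sense to their gene. For uc009bxq.1, 251 nt long, there were 0, 0, 0 and 2 fragments in IR libraries, against 11, 2, 6 and 7 in sham libraries. The ratio of the group totals, 2 and 26 fragments scaled to library size, was 0.0967 with a 95% interval of 0.0111 to 0.386 (exact, counting error only), and edgeR gave an unadjusted p of 0.0144 and an adjusted p of 0.698. It held 0.234% of the locus FPKM in IR and 1.73% in sham, so the level of Hnrnpa2b1 RNA as a whole did not rest on it. For uc007dvc.2 the values were 8.44, 8.78, 8.18 and 11.8 FPKM in IR libraries, against 12.4, 10.95, 11.5 and 12.2 FPKM in sham libraries (log2 fold change -0.25, SE 0.10, edgeR adjusted p = 0.699). Here 3 IR libraries lay below all sham libraries and IR 4 lay among them.

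The next smallest p-values belonged to TCONS_00017759, bidirectional to Hnrnpa3, and to AK144334, antisense to Hnrnpab. TCONS_00017759 had 0.854 ± 0.144 FPKM in IR and 0.530 ± 0.219 FPKM in sham (SD, n = 4 each), with an edgeR adjusted p of 0.726. AK144334 had 0.389 ± 0.172 FPKM in IR and 0.627 ± 0.154 FPKM in sham (SD, n = 4 each), with an edgeR adjusted p of 0.822. NR_045057, bidirectional to Srsf5, had 0.717 ± 0.216 FPKM in IR and 0.544 ± 0.319 FPKM in sham (SD, n = 4 each), with an edgeR adjusted p of 0.885. The libraries were stranded, but the strand setting of the counting is not given in the sources used here, so reads of AK144334 and of Hnrnpab may not be fully told apart.

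At the other loci the non-coding part was smaller than at Srsf7. It was 21.5% ± 3.60 in IR and 21.2% ± 3.39 in sham for Hnrnph3, and 16.04% ± 2.72 in IR and 14.7% ± 0.217 in sham for Hnrnpa1 (SD, n = 4 each). For Hnrnpu it was 9.63% ± 0.444 in IR and 10.8% ± 1.11 in sham (SD, n = 4 each, exact permutation p = 0.114). The smallest p over the 9 loci was 0.0571, for Hnrnpa2b1, and 0.513 after Benjamini-Hochberg adjustment over them, so 0 of 9 loci passed an adjusted p under 0.05.

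The genes around the SR proteins and hnRNPs in the splicing pathway were described from the same edgeR results, which called 0 of them. Of 14 hnRNPs under other names, 1 was lower at an unadjusted p under 0.05, where 4.86% of all tested mRNAs were lower and 4.87% were higher. This was Syncrip, which in mouse liver cells is known to load microRNAs into exosomes. Syncrip had 25.6, 19.8, 21.5 and 27.5 FPKM in IR libraries, against 34.1, 27.7, 25.6 and 29.0 FPKM in sham libraries (log2 fold change -0.27, SE 0.10, edgeR adjusted p = 0.480). The median over these 14 was -0.12, and the most abundant were Ptbp3, Ptbp1 and Pcbp1.

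Of 9 tested kinases and importers of SR proteins, 0 reached the unadjusted level and the median was 0.021. Without sham 1, 1 of the 9 was higher and 0 were lower at that level, and the median was 0.047. Clk1, a kinase of the nucleus, had 70.1 ± 8.17 FPKM in IR and 74.3 ± 7.13 FPKM in sham, and Srpk1, a kinase of the cytoplasm, had 51.8 ± 8.02 FPKM in IR and 53.0 ± 9.42 FPKM in sham (SD, n = 4 each). Srpk3, known from heart and skeletal muscle, had 0.0546 ± 0.0526 FPKM in IR and 0.0378 ± 0.0578 FPKM in sham (SD, n = 4 each). Of 20 tested SR-related proteins 2 were lower at the unadjusted level and 0 higher. They were U2af1, which reads the AG of the 3′ splice site (log2 fold change -0.39, SE 0.15, edgeR adjusted p = 0.480), and Luc7l, a U1 partner (-0.27, SE 0.12, edgeR adjusted p = 0.512). The median of that list was -0.019. Without sham 1, the highest library for 14 of the 20, the median was 0.017 and 0 were lower at the unadjusted level.

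Of 34 tested core genes of the spliceosome 29 were below 0, against 50.1% of all tested mRNAs, with a median of -0.17, and 3 were lower at the unadjusted level and 0 higher. These were Sf3b5 of the branch site complex (log2 fold change -0.42, SE 0.17, edgeR adjusted p = 0.490), and Snrpg (-0.70, SE 0.30, edgeR adjusted p = 0.494) and Snrpd2 (-0.54, SE 0.23, edgeR adjusted p = 0.496), which are Sm proteins of the snRNP ring. Sham 1 was the highest library for 24 of the 34, among them these 3, with 67.4 FPKM of Snrpg where the other sham libraries had 33.1, 26.6 and 30.5 FPKM. Without sham 1, 28 of 34 were below 0, where 47.9% of all mRNAs were, the median was -0.099 and 0 were lower at the unadjusted level. Of 15 genes of nonsense-mediated decay and the exon junction complex, 1 was lower, Smg8, with 4.55 ± 0.383 FPKM in IR and 6.17 ± 0.537 FPKM in sham (SD, n = 4 each, log2 fold change -0.33, edgeR adjusted p = 0.455). The median of that list was 0.052.

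Splicing regulators known from epithelia were well measured, and 2 known from heart muscle, Rbm20 and Rbm24, were low. Rbm47, an epithelial RNA-binding protein, had 147 ± 12.99 FPKM in IR and 145 ± 12.8 FPKM in sham, Esrp1 had 19.8 ± 3.08 FPKM in IR and 23.8 ± 3.88 FPKM in sham, and Esrp2 had 12.6 ± 1.62 FPKM in IR and 17.01 ± 2.60 FPKM in sham (SD, n = 4 each). Esrp1 and Esrp2 are the epithelial splicing regulators. The IR values of Esrp2, 10.7 to 14.6 FPKM, all lay below its sham values, 15.1 to 20.8 FPKM, as did those of 4.37% of all tested mRNAs (edgeR adjusted p = 0.543). Rbm20, the regulator of titin splicing in cardiomyocytes, had 0.192, 0.142, 0.143 and 0.0897 FPKM in IR libraries, against 0.136, 0.0546, 0.0773 and 0.0651 FPKM in sham libraries. Mbnl1, Mbnl2 and Celf1, which act in muscle and in many other tissues, had 24.8 ± 4.17, 32.00 ± 3.42 and 34.4 ± 4.87 FPKM in IR and 27.2 ± 1.52, 33.96 ± 3.61 and 37.5 ± 3.49 FPKM in sham (SD, n = 4 each). Rbm24, also of heart and skeletal muscle, had 0.665 ± 0.177 FPKM in IR and 0.602 ± 0.245 FPKM in sham (SD, n = 4 each). Of the 20 regulators 12 were tested, and at the unadjusted level 1 was higher, Celf2 (log2 fold change 0.50, SE 0.15, edgeR adjusted p = 0.455), and 1 lower, Mbnl3 (-0.45, SE 0.20, edgeR adjusted p = 0.512). Mbnl3 had 12.8 FPKM in sham 1, where the other sham libraries had 7.12, 6.20 and 7.05 FPKM. Without sham 1, 1 of the 12 was higher and 0 were lower at the unadjusted level. Celf2 is known from lymphocytes as well as muscle, and the T and NK lymphocyte markers had a median log2 fold change of 1.22. Their part in the value of Celf2 was not tested.

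**Figure D5:**
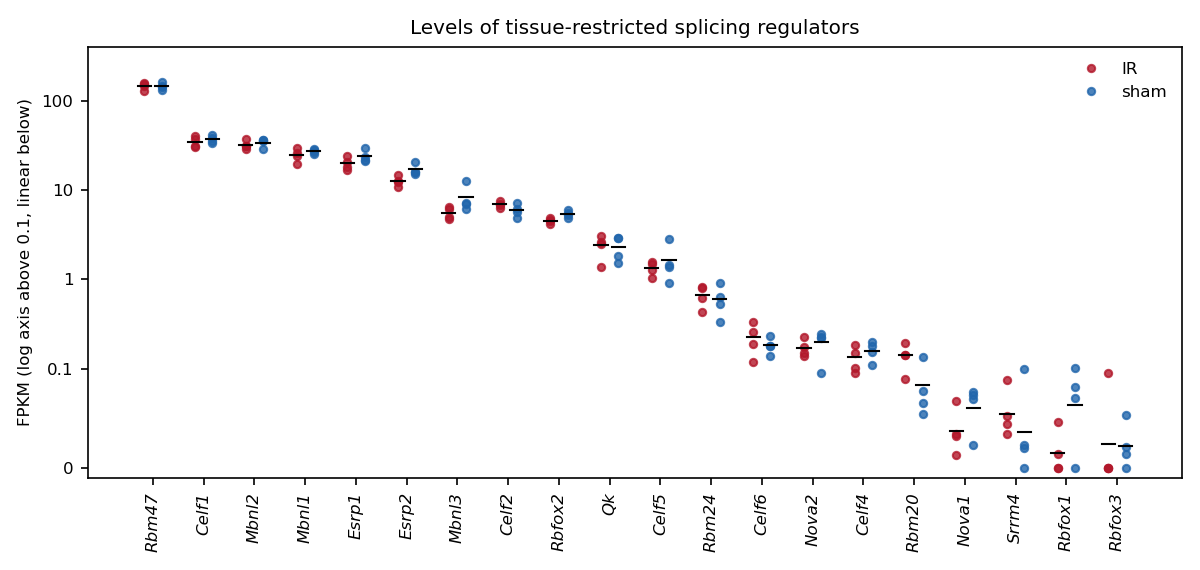
FPKM of 20 splicing regulators, some of which act in many tissues, in each library (log axis above 0.1, linear below), IR points left of sham points, black lines at the means. Rbm47 lies at 147 FPKM in IR and 145 FPKM in sham, and Rbm20 stays below 0.2 FPKM in all libraries.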

How the data were processed

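RNA labelled as that of cardiac EVs, from 4 IR mice and 4 sham mice, was measured by stranded total RNA sequencing. The submitters' notes name cutadapt 1.9.3 for trimming, HISAT2 with mm10 for alignment, and Cuffdiff. Other versions, the annotation and the strand setting of the counting are not given in the sources used here. The FPKM values were deposited by the authors as Cuffdiff gave them. The deposited estimated counts carry a factor for each library. The most frequent value (0.763 to 1.18) was taken as 1 fragment, and counts were divided by it and rounded. An empty entry of each table was left out, and 70 genes with several entries were summed.

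The 12716 mRNAs and 3088 lncRNAs whose mean reached 0.5 FPKM were fitted in separate edgeR 4.0.16 models (R 4.3.3) with TMM scaling and two-sided, robust quasi-likelihood tests. Standard errors were taken from the fold change and F statistic, and are approximate, and 95% intervals use the t distribution of the fit. Calls used the study's thresholds (adjusted p under 0.05, fold change over 2). The script was tested on simulated data. Alternatives were DESeq2 1.42.0, limma 3.58.1 with pseudocounts of 0.1 and 1 FPKM, other scalings and counts, no filter, the replicate number as a block, and each library left out. Members and gene lists were chosen with earlier results of these data known. Values per library are given for the 8 members with the smallest p, the 3 SR and 3 hnRNP genes of highest level, and those without overlap, with up to 3 genes per other list and up to 6 lncRNAs by p. Srsf7, Srsf12, Hnrnpa1, Rbm20 and other genes given for their level or role were chosen with their values in view. Single values were compared by exact permutation (smallest p 0.0286). Sequences came from RefSeq on GRCm38.p6. Python 3.11.15, scipy 1.17.1 and matplotlib 3.10.9 were used.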

Additional observations from a re-analysis of the deposited data

Results flagged for a closer look

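Among 74 groups of 4 libraries (members, and lncRNAs tied to them), 5 held a library far from the other 3 by Dixon's test, and chance flags about 1 group in 20. In sham 1, Hnrnpr had 27.2 FPKM, where the other sham libraries had 17.9 to 18.7 FPKM. In IR 1, Srsf12 had 0.268 FPKM, where the other IR libraries had 0.0398 to 0.0687 FPKM, a level that few fragments support. In IR 4, uc009bxq.1 at Hnrnpa2b1 had 1.38 FPKM from 2 fragments. The other IR libraries had 0 fragments, so any value above 0 would have been flagged there. In IR 4, uc007dvc.2 at Hnrnpu had 11.8 FPKM, where the other IR libraries had 8.18 to 8.78 FPKM. In IR 3, TCONS_00017759 near Hnrnpa3 had 1.07 FPKM, where the other IR libraries had 0.769 to 0.802 FPKM.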

How the results depend on the processing

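No alternative brought a member past the adjusted threshold, and the lowest adjusted p was 0.375, without IR 4. Of 480 alternative fold changes of the 30 members, 460 kept their direction and 20, in 10 genes, turned it. With limma at pseudocounts of 0.1 and 1 FPKM, Hnrnph2 was at -0.002 in both, Hnrnph3 at -0.060 and -0.057 and Srsf9 at -0.063 and -0.057. Leaving out 1 library gave log2 fold changes of -0.17 to 0.018 for Hnrnpa2b1, -0.11 to 0.13 for Hnrnpc, -0.14 to 0.013 for Hnrnph1, -0.003 to 0.16 for Hnrnph3, -0.16 to 0.11 for Hnrnpm, -0.084 to 0.060 for Hnrnpu, -0.077 to 0.020 for Hnrnpul1, -0.19 to 0.030 for Srsf5 and -0.037 to 0.14 for Srsf9. For Hnrnpa2b1, Hnrnpc, Hnrnph1, Hnrnpm and Hnrnpu the highest value came without sham 1. Members at an unadjusted p under 0.05 numbered 1 with DESeq2, 1 with limma at each pseudocount, and 0 to 1 without 1 library (1 without IR 4, Hnrnpul2, and 1 without sham 3, Srsf7). Over all mRNAs, DESeq2 called 31 higher and 9 lower where edgeR called 0. Leaving out 1 library gave 0 to 3 higher and 0 to 1 lower (3 and 1 without sham 2), and the unadjusted p with no fold criterion 619 and 618. The cause of these differences was not tested. Medians ran from -0.20 to -0.070 for SR genes and from -0.17 to -0.033 for hnRNP genes. All 78 alternative fold changes of the 6 lncRNAs at member loci named in the text kept their direction and side; over the 14 tested, the number at an unadjusted p under 0.05 was 2, and 1 with no filter, with the replicate block and without IR 1, IR 2, IR 3, sham 1, sham 3 or sham 4, and 3 without sham 2.

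With the replicate block the members called stayed at 0, with a lowest adjusted p of 0.662. The labels give no pairing of the mice, and 0 libraries correlated best with their own number in the other group (r -0.32 to 0.05). Whether mice with the same number were handled together cannot be told from these correlations. Fold changes inside each member's 95% interval could not be told apart with 4 mice a group.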
